A study of Homo sapiens with 36 samples.

Results

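The mucin genes MUC5AC, MUC5B and MUC1 were taken by symbol from the raw count columns of 4 gene tables and followed across every library that listed them, 3 genes of 20633 in all. RNA sequencing had been done on 36 libraries in 12 groups of 3, from the human lines 293T (embryonic kidney cells that carry the SV40 large T antigen) and MDA-MB-231 (a triple-negative breast carcinoma line of mesenchymal type). In each line, siControl, siEglN2-1 and siEglN2-2 formed a set against the prolyl hydroxylase EglN2, and shControl, shKDM5A-1 and shKDM5A-2 a set against KDM5A, a demethylase that removes methyl groups from lysine 4 of histone H3. The title of the study asks how hydroxylation of proline 16 of histone H3 bears on gene expression. All groups grew in the same DMEM with serum and antibiotics, and each line is a single line, so that differences between lines rest on 1 model of each kind. The mucins were chosen with their response to the knockdown reagents already known. Their values with each reagent, and the difference between both reagents of a pair, are therefore given below as a description with no p-value. Where it is stated that these mucins passed or missed a threshold, the share of all genes stands beside it and nothing is read from it. The other genes of mucin biology were tested one by one across all genes of a table, on lists that were also chosen with earlier results of these data known.

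Mucins are long glycoproteins whose repeated serine- and threonine-rich stretches carry dense O-linked sugars. MUC5AC and MUC5B are secreted, assemble into polymers through their cysteine-rich ends and form the gel of airway and stomach mucus, where goblet cells and gland cells make them. MUC1 is a membrane mucin of the apical surface of most simple epithelia and is studied in breast cancer, where it loses its polarity and its cytoplasmic tail meets receptor kinases and catenins.

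MUC5AC (ENSG00000215182.8) lies on chromosome 11 at 1157953 to 1201138 and MUC5B (ENSG00000117983.17) at 1223066 to 1262172, both on the plus strand of GRCh38 in the GENCODE 29 annotation. They are head to tail neighbours with 21.927 kb and 0 annotated genes between them. MUC1 (ENSG00000185499.16) lies on the minus strand of chromosome 1 at 155185824 to 155192916. The exons of MUC5AC, MUC5B and MUC1 cover 17.448, 18.598 and 4.717 kb. Since reads are assigned by sequence, the stretches in which the mucins resemble each other or themselves are shown. The longest run that the MUC5AC and MUC5B transcripts share is 91 bases of coding sequence, at positions 3276 to 3366 of the MUC5AC transcript and 3257 to 3347 of the longest MUC5B transcript:
MUC5AC and MUC5B, shared run: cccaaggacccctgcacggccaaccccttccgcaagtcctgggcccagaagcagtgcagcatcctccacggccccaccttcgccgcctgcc
Of 17399 words of 50 bases in the MUC5AC transcript, 66 (0.379%) also occur in MUC5B, and none occurs in MUC1. Reads that fall wholly in those words cannot be told apart between the neighbours. Repetition inside each gene is greater: 21.45% of the 50-base words of MUC5AC, 29.22% of those of MUC5B and 42.42% of those of MUC1 occur more than once in their own transcript. In MUC1 the commonest 60-base word is the coding tandem repeat, present in 19 exact copies in the longest annotated transcript (the word below starts at an arbitrary phase of the repeat):
MUC1, tandem repeat: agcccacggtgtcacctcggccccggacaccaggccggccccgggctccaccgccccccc
The RefSeq promoter of MUC1, chr1:155192866-155193165 on the minus strand of GRCh38.p14, spans 250 bases before and 50 after the start site. It was shown because KDM5A is known to bind CCGCCC through its ARID domain, and the capitals mark the reverse complement of that motif, GGGCGG, which is also the GC box bound by Sp factors:
MUC1 promoter: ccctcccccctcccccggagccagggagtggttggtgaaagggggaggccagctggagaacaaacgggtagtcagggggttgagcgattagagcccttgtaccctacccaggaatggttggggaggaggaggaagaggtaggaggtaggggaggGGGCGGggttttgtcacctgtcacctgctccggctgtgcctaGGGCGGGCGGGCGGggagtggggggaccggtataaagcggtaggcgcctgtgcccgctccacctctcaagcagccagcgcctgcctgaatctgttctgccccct
GGGCGG was found 4 times, 3 of them overlapping in 1 run, and GGGCGG on either strand stands in 45.0% of 35116 RefSeq promoters of the same length. TATAAA was found once on the plus or minus strand, against 11.5% of promoters. CACGTG and the hypoxia response core ACGTG were not found in this window and stand in 7.3% and 21.4% of promoters. Its base composition, 65.7% G or C with 13 CpG, compares with medians of 58.7% and 14.

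Gene totals per library ran from 14361177 to 27592124 counts. EGLN2 stood between 60.2 and 73.7 CPM (counts per total of the library, with that total corrected by TMM) in 293T controls and between 21.9 and 22.7 with the siRNAs, and in MDA-MB-231 between 104.9 and 106.5 and between 20.8 and 25.1. KDM5A stood between 66.2 and 67.6 CPM in 293T shControl and between 26.3 and 32.7 with the shRNAs, and in MDA-MB-231 between 47.0 and 54.9 and between 16.1 and 19.4. LIN28B and NEFM had rows in 293T tables only, and VIM stood at 2878 CPM or more in MDA-MB-231. VIM was also high in 293T, at an average log2 CPM of 9.30 in the siRNA set and 10.09 in the shRNA set. The tables of that line held no row for the epithelial CDH1 or for TWIST1, a mesenchymal marker. Other epithelial markers did have rows there, among them EPCAM (average log2 CPM of 2.21 in the siRNA set) and ELF3. ELF3 stood at 2.54 to 3.17 CPM in siControl and 6.21 to 6.92 in shControl. The goblet cell markers CLCA1 and ZG16 had no row in any table, whereas SPDEF, FOXA3, AGR2, FCGBP and CREB3L1 had rows in both MDA-MB-231 tables. The siControl library of 293T that carries no replicate number stood apart from the other 2 (chi-square per degree of freedom of 19.2 and 22.8, against 1.33 to 3.10 in pairs of the libraries not named here), and so did siControl replicate 1 of MDA-MB-231 (6.72 and 7.66). Values of the mucins without these libraries are given beside the results that rest on them. Whether the replicates are separate cultures is not stated, so p-values measure the spread between these libraries only.

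MUC5AC had a row in both MDA-MB-231 tables and in neither 293T table. In the shRNA set its counts were 393, 474 and 536 in shControl, 26, 44 and 27 with shKDM5A-1, then 34, 25 and 21 with shKDM5A-2. On the CPM scale these are 26.5, 29.6 and 27.2 in the controls, 1.41, 2.45 and 1.5 with the first shRNA and 1.98, 1.34 and 1.13 with the second. Every knockdown library lay far under every control library, and the ranges of the 2 shRNAs overlapped each other. The fitted log2 fold changes were -3.95 ± 0.13 (SE) for the first and -4.23 ± 0.14 for the second, with 3 libraries a group. These are 15.5-fold and 18.8-fold lower levels. Every SE of a log2 fold change given here is its absolute value over the square root of its edgeR F statistic. For large falls to few counts, as in these mucins with the shRNAs, such an SE can be smaller than counting error alone. In bulk RNA, fewer cells that make a transcript and less of it per cell cannot be told apart.

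MUC5B, the neighbouring gel-forming mucin, had counts of 414, 515 and 532 in shControl, 49, 48 and 45 with shKDM5A-1, then 11, 17 and 21 with shKDM5A-2. Its CPM were 27.9, 32.1 and 27.0, then 2.67, 2.67 and 2.51, then 0.640, 0.914 and 1.13. Here all 3 groups were separate, with shKDM5A-2 lowest. The log2 fold changes were -3.47 ± 0.11 and -5.00 ± 0.13, 11.1-fold and 31.9-fold lower than shControl.

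MUC1 lay on opposite sides of the controls with the 2 shRNAs. Counts were 26, 30.001 and 42 in shControl, 55, 53 and 51.999 with shKDM5A-1, then 9, 8 and 10.999 with shKDM5A-2, or 1.75, 1.87 and 2.13 CPM, then 2.99, 2.95 and 2.90, then 0.524, 0.430 and 0.594. The groups did not overlap, with shKDM5A-1 above and shKDM5A-2 below the controls. The log2 fold changes were 0.61 ± 0.20, a 1.52-fold higher level, and -1.89 ± 0.27, a 3.71-fold lower one. All 3 mucins were past an adjusted p of 0.05 with each shRNA, where 55.3% of all genes were with shKDM5A-1 and 59.0% with shKDM5A-2; since this contrast chose the mucins, nothing is read from that count.

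**Figure D1:**
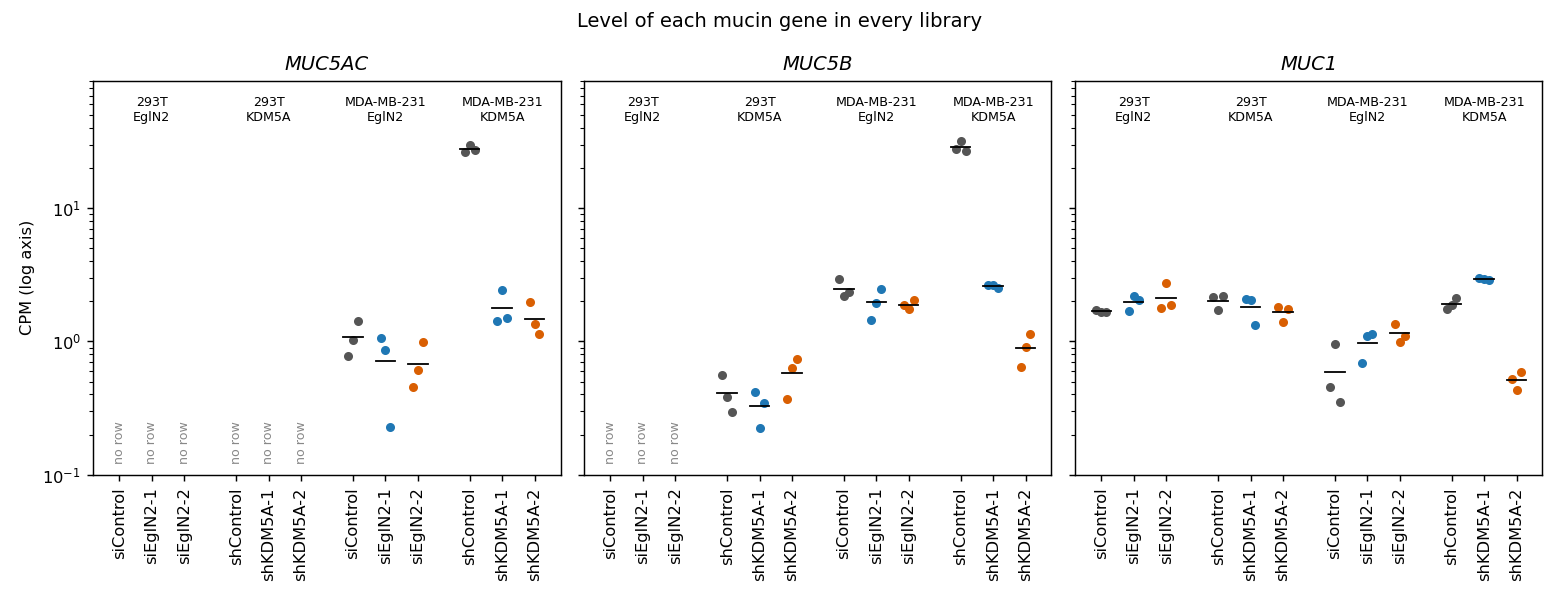
Level of MUC5AC, MUC5B and MUC1 in each library, in CPM on a log axis, by group (grey, controls; blue, first reagent; orange, second reagent; bars, means; "no row", gene not listed in that table). The MDA-MB-231 shControl libraries stand at 26.5 to 29.6 CPM for MUC5AC and 27.0 to 32.1 CPM for MUC5B, above every other library of that line.

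Per kb of exon, the gel-forming mucins of MDA-MB-231 shControl stood at the same level within their spread, 1.59 ± 0.0925 CPM per kb (SD, n = 3) for MUC5AC and 1.56 ± 0.147 for MUC5B, and MUC1 stood lower, at 0.407 ± 0.0414. With shKDM5A-1 the order on that scale was MUC1 (0.625 ± 0.0101), MUC5B (0.141 ± 0.00501) and MUC5AC (0.103 ± 0.0328), where the libraries of MUC5B and MUC5AC overlapped. With shKDM5A-2 it was MUC1 (0.109 ± 0.0174), MUC5AC (0.0851 ± 0.0252) and MUC5B (0.0482 ± 0.0133), where MUC1 and MUC5AC differed by less than their spread. The count of MUC5AC per count of MUC5B was 0.949, 0.920 and 1.01 in shControl, 0.531, 0.917 and 0.600 with shKDM5A-1, then 3.09, 1.47 and 1.00 with shKDM5A-2. In the siRNA set it was 0.267, 0.469 and 0.606 in siControl, 0.739, 0.441 and 0.0909 with siEglN2-1, then 0.242, 0.344 and 0.486 with siEglN2-2. Near equal counts of both genes thus stood in the shControl libraries and in 2 of the 6 KDM5A knockdown libraries, and MUC5B had more counts in every library of the siRNA set, siControl included.

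The difference between the 2 KDM5A shRNAs follows from the same responses that were known when the mucins were chosen, so it is described without a p. In MDA-MB-231, shKDM5A-2 stood from shKDM5A-1 by a log2 of -1.53 ± 0.22 (SE) for MUC5B, with 3 of 3 libraries below. For MUC1 the difference was -2.50 ± 0.25, again with 3 of 3 libraries below. For MUC5AC it was -0.28 ± 0.23, with ranges that overlapped. Of all genes, 56.6% differed between these shRNAs by edgeR.

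In the siRNA set of MDA-MB-231 the gel-forming mucins were scarce in every library, controls included. MUC5AC counts were 12, 15 and 20 in siControl, 17, 15 and 4 with siEglN2-1 and 8, 11 and 18 with siEglN2-2, or 0.780, 1.03 and 1.42 CPM, then 1.06, 0.863 and 0.226, then 0.452, 0.606 and 0.988. The 3 ranges overlapped, and the log2 fold changes of -0.59 ± 0.40 and -0.64 ± 0.39 had intervals that reach past 0 (-1.37 to 0.19 and -1.41 to 0.13). MUC5B counts were 45, 32 and 33, then 23, 34 and 44, then 33, 32 and 37, and its CPM 2.93, 2.20 and 2.34, then 1.44, 1.96 and 2.49, then 1.86, 1.76 and 2.03. The siEglN2-2 libraries lay just under the lowest control and those of siEglN2-1 overlapped it, with log2 fold changes of -0.34 ± 0.22 and -0.40 ± 0.22 for siEglN2-1 and siEglN2-2. Single libraries moved these values: for MUC5AC with siEglN2-1 they ran from -0.97 without its replicate 1 to -0.15 without its replicate 3, which had 4 counts, and with siEglN2-2 from -1.004 without its replicate 3 to -0.40 without siControl replicate 3. For MUC5B with siEglN2-1 they ran from -0.55 without its replicate 3 to -0.16 without its replicate 1, and with siEglN2-2 from -0.48 without siControl replicate 2 to -0.26 without siControl replicate 1. Without siControl replicate 1, which stands apart, the values were -0.78 and -0.83 for MUC5AC and -0.20 and -0.26 for MUC5B.

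MUC1 in the same set had counts of 7, 14 and 5 in siControl, 11.001, 19.001 and 20 with siEglN2-1 and 24, 18 and 20 with siEglN2-2, or 0.455, 0.963 and 0.354 CPM, then 0.688, 1.09 and 1.13, then 1.36, 0.991 and 1.1. The libraries of siEglN2-2 lay above all controls, and siControl replicate 2 reached into the range of siEglN2-1. The log2 fold changes were 0.72 ± 0.37 and 0.95 ± 0.36. One control library decided much of their size: without siControl replicate 2 they were 1.25 and 1.48, and without siControl replicate 1, 0.56 and 0.79. Past an adjusted p of 0.05 were 0 of 3 mucins with siEglN2-1 and 1 of 3, MUC1, with siEglN2-2, where 44.5% and 45.4% of all genes were; the mucins were chosen on these contrasts too, and nothing is read from the counts. Between siEglN2-2 and siEglN2-1 the log2 differences were -0.05 (95% interval -0.86 to 0.76) for MUC5AC, -0.07 (-0.50 to 0.37) for MUC5B and 0.23 (-0.39 to 0.85) for MUC1. Of all genes, 0.00662% differed between these siRNAs by edgeR (1 of 15109, 1 by DESeq2, 940 at an unadjusted p under 0.05).

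In 293T, MUC1 was listed in both tables. In the siRNA set its counts were 40.6, 42.8 and, in the unnumbered library, 35.0 in siControl, then 40.0, 50.9 and 46.0 with siEglN2-1 and 37.0, 76 and 41 with siEglN2-2. In CPM these were 1.71, 1.68 and 1.65, then 1.70, 2.19 and 2.05, then 1.77, 2.73 and 1.87. The siEglN2-2 libraries lay above the controls, 1 of them well above the rest, and siEglN2-1 overlapped them. Log2 fold changes were 0.23 ± 0.20 and 0.34 ± 0.20, or 0.21 and 0.33 without the unnumbered control; the second was 0.11 without siEglN2-2 replicate 2. MUC1 was past an adjusted p of 0.05 with neither siRNA, where 35.1% and 34.2% of all genes were. Between the siRNAs it differed by a log2 of 0.12 ± 0.19, and 0% of all genes passed that comparison by edgeR (276 at an unadjusted p under 0.05, 1 by DESeq2).

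In the 293T shRNA set, MUC1 stood at 41.9, 41 and 45.0 counts in shControl, 35, 36 and 23.0 with shKDM5A-1, then 34.7, 26.9 and 38.0 with shKDM5A-2. These are 2.14, 1.74 and 2.20 CPM, then 2.08, 2.03 and 1.33, then 1.82, 1.40 and 1.75. All ranges overlapped, with log2 fold changes of -0.15 ± 0.22 and -0.28 ± 0.22. The first became 0.03 without shKDM5A-1 replicate 3 and -0.26 without shKDM5A-1 replicate 1, so that 1 library turned its sign, and the second ran from -0.38 without shControl replicate 2 to -0.17 without shKDM5A-2 replicate 2. MUC5B was near the limit of counting, at 11, 9 and 6 counts in shControl, 7, 4 and 6 with shKDM5A-1, then 7, 12 and 16 with shKDM5A-2. Its log2 fold changes of -0.31 ± 0.47 and 0.50 ± 0.41 were within the spread between libraries. They ran from -0.51 without shKDM5A-1 replicate 1 to -0.04 without shControl replicate 1, and from 0.28 without shKDM5A-2 replicate 3 to 0.76 without shControl replicate 1. Neither mucin was past an adjusted p of 0.05 with either shRNA, where 42.2% and 39.0% of all genes were. The shRNAs differed by 0.81 ± 0.45 for MUC5B and -0.12 ± 0.23 for MUC1, with ranges that overlapped, where 49.3% of all genes differed.

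**Figure D2:**
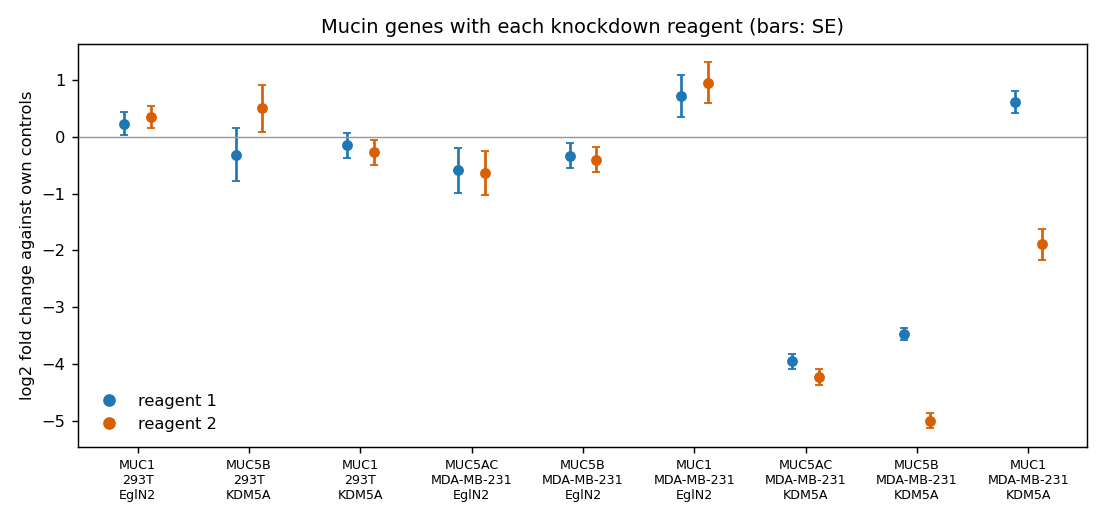
Log2 fold change of each mucin against the controls of its own set, by line and target, with 3 libraries a group. Blue is the first reagent, orange the second, and bars are the SE derived from the edgeR F statistic, which can be too small for large falls. MUC5AC and MUC5B lie between -3.47 and -5.00 in the MDA-MB-231 KDM5A set, and MUC1 there lies at 0.61 with one shRNA and -1.89 with the other.

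The 2 control groups of MDA-MB-231 were not alike in their mucins. MUC5AC was 1.08 ± 0.320 CPM in siControl and 27.8 ± 1.61 in shControl (SD, n = 3 each), 25.8-fold higher. MUC5B was 2.49 ± 0.386 and 29.03 ± 2.73 CPM, 11.7-fold higher, and MUC1 0.591 ± 0.326 and 1.92 ± 0.195 CPM, 3.25-fold higher. In 18 MDA-MB-231 libraries, MUC5AC was at or above 26.5 CPM in the 3 shControl libraries and at most 2.45 CPM in the other 15, and MUC5B at or above 27.0 in those 3 and at most 2.93 in the other 15. With shKDM5A-1 and shKDM5A-2, MUC5AC stood at 1.41 to 2.45 and 1.13 to 1.98 CPM, where the siRNA set ran from 0.226 to 1.42. MUC5B stood at 2.51 to 2.67 and 0.640 to 1.13 CPM, where the siRNA set ran from 1.44 to 2.93. MUC5B with shKDM5A-2 thus lay below every library of the siRNA set. For MUC5AC, the lowest shKDM5A-1 library (1.4148 CPM) lay just under the highest of the siRNA set (1.416 CPM), and the others lay above it. Without siControl replicate 1 of MDA-MB-231, an alternative chosen after seeing the data, the ratios were 22.7, 12.8 and 2.92. Of 22 listed secretory cell genes, 10 were tested in both tables of that line: all shControl libraries lay above all siControl libraries for 4 (FCGBP 5.60-fold, ELF3 2.29-fold, SPDEF 2.22-fold and AGR2 1.49-fold) and below them for 3 (FOXA1, KLF4 and XBP1, at ratios of 0.587, 0.688 and 0.939), and the groups overlapped for the other 3. Of the 14889 genes tested in both tables, 29.9% lay above and 27.4% below, so the counts of this list are near those of all genes. Outside that list, the sialomucins PODXL and CD164 lay below, at ratios of 0.766 and 0.928. In 293T, MUC1 stood at 1.68 ± 0.0291 and 2.03 ± 0.253 CPM, a ratio of 1.21, or 1.20 without the unnumbered library. The 2 control groups differ in reagent and come from separate tables, which cannot be told apart, and no test was made between tables. With the 18 libraries of MDA-MB-231 scaled together, also chosen after seeing the data, the ratios were 25.5, 11.5 and 3.21.

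Of the other mucins, the gel-forming MUC2 of the intestine fell with both KDM5A shRNAs in MDA-MB-231, the 1 table that lists it. Its counts were 19, 18 and 14 in shControl, 1, 7 and 2 with shKDM5A-1, then 0, 1 and 0 with shKDM5A-2, so that the groups did not overlap. Only its shControl libraries reach the 10 counts that a listed row holds in some library. MUC2 was thus listed through the group where it is high, so the ratios and p-values that follow are a description and no independent support. The ratio of shControl to shKDM5A-1 counts per library total was 5.70 (exact 95% interval 2.86 to 12.6, counting error only; edgeR, adjusted p = 8.32e-05). With shKDM5A-2, where 1 count remained, it was 52.8 (interval 9.07 to 2128; edgeR, adjusted p = 2.26e-07). MUC6, the gland mucin of the stomach and the next mucin on the chromosome, had 6, 6 and 10 counts in shControl, 11, 15 and 7 with shKDM5A-1, then 8, 8 and 12 with shKDM5A-2, and passed the test with neither (edgeR, adjusted p = 0.328 and 0.638). Over all genes of that table, 15.8% were lower and 16.4% higher with both shRNAs, which is the background of the counts that follow for that set.

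PODXL, the membrane sialomucin podocalyxin, was called lower with both reagents in 3 of 4 sets. It fell with both EglN2 siRNAs in MDA-MB-231 (log2 fold changes -1.42 ± 0.022 and -1.38 ± 0.022; edgeR, adjusted p = 2.42e-40 and 3.80e-40) and in 293T (-0.97 ± 0.076 and -0.92 ± 0.076; edgeR, adjusted p = 7.97e-06 and 1.18e-05). It fell with both KDM5A shRNAs in MDA-MB-231 (-0.74 and -0.14) and in 293T went down with shKDM5A-1 (-0.68) and up with shKDM5A-2 (0.45). CD164, the sialomucin endolyn, fell with shKDM5A-2 in both lines (-1.03 in MDA-MB-231, -0.62 in 293T) and rose slightly with shKDM5A-1 (0.07 and 0.10). OVGP1, a secreted oviduct glycoprotein, fell with both EglN2 siRNAs in 293T (-0.83 and -0.58). MUC3A, an intestinal membrane mucin, was listed in 293T only and passed no test there (-0.24 and -0.37 with the siRNAs, -0.51 and -0.54 with the shRNAs).

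Of 10 tested goblet and secretory cell genes, 7 fell with both KDM5A shRNAs in MDA-MB-231 and 0 rose, 70% against the 15.8% lower over all genes; the median of the mean log2 fold change over the list was -0.56, against -0.01 for all genes. AGR2, a disulfide isomerase of the endoplasmic reticulum that mouse intestine needs to make mucin, was at 8.90, 7.55 and 9.50 CPM in shControl, 2.29, 1.95 and 2.4 with shKDM5A-1, then 2.21, 2.04 and 2.05 with shKDM5A-2. The groups of both shRNAs lay under all controls and on each other, at log2 fold changes of -1.97 ± 0.14 and -2.04 ± 0.14 (edgeR, adjusted p = 1.64e-13 and 6.40e-14). FCGBP, a mucus protein with von Willebrand domains, fell by -0.96 and -2.53, and CREB3L1, a membrane-bound transcription factor of secretory cells, by -0.68 and -0.61. Of the other 4, SPDEF, a transcription factor of goblet cell differentiation, changed by -0.53 and -0.88, ELF3, an epithelial Ets factor, by -0.46 and -2.69, FOXA2, which holds back mucus genes in mouse airway, by -0.26 and -0.70 and XBP1, a factor of secretory capacity, by -0.30 and -0.20; these were named after their values were seen.

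The other sets gave other counts for this list, a difference that was not tested. With the EglN2 siRNAs in MDA-MB-231, SPDEF (0.42 and 0.42) and KLF4, a factor of epithelial differentiation (0.21 and 0.22), rose and CREB3L1 (-0.45 and -0.41), XBP1 (-0.09 and -0.11), TFF1 and TFF2 fell, 2 and 4 of 13 tested. TFF1 and TFF2, trefoil peptides that are secreted with mucins, stood at 10 to 12 and 18 to 24 counts in siControl and at 1 to 8 and 7 to 19 with the siRNAs. For TFF1 only the controls reach the 10 counts that a listed row holds in some library, so its place among the 4 is a description. All genes of that table were higher with both siRNAs in 18.3% and lower in 20.4%. In 293T, 8 of the genes were tested, and 1 rose (XBP1, 0.20 and 0.20) and 1 fell (CREB3L1, -0.44 and -0.39) with the siRNAs, where 14.6% of all genes were higher and 15.5% lower. With the shRNAs, 1 rose (FOXA1, 0.32 and 0.61) and 1 fell (CREB3L1, -0.77 and -0.57), where 7.33% were higher and 6.11% lower. CREB3L1 was thus called lower in all 4 sets.

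The polypeptide GalNAc transferases place the first sugar of the mucin O-glycan. In MDA-MB-231, 4 of 14 tested fell and 2 rose with both KDM5A shRNAs, led by GALNT5 (-0.97 and -0.46), GALNT4 (-0.33 and -1.70) and GALNT18 (-0.54 and -0.21) among the lower and GALNT6 (0.23 and 0.64) and GALNT1 (0.14 and 0.09) as the higher. With the EglN2 siRNAs in that line 7 of 14 fell, led by GALNT12 (-1.18 and -1.22), GALNT13 (-0.85 and -0.68) and GALNT5 (-0.50 and -0.52), and 2 rose, GALNT3 (0.43 and 0.40) and GALNT10 (0.23 and 0.26), where 20.4% of all genes were lower and 18.3% higher. In 293T, GALNT3 (1.26 and 1.09), GALNT9 (1.11 and 0.95) and GALNTL6 (0.42 and 0.51) rose with the siRNAs and 4 of 17 fell (14.6% of all genes higher, 15.5% lower). With the 293T shRNAs, GALNT4 (-1.13 and -1.55), GALNT12 (-0.43 and -0.30) and GALNT6 (-0.50 and -0.27) led 4 of 17 that fell, and GALNT11 rose (0.13 and 0.23), against 6.11% lower and 7.33% higher over all genes.

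Galactosyl-, fucosyl-, sialyl- and N-acetylglucosaminyltransferases extend and cap those glycans. In MDA-MB-231, 5 of 14 fell and 0 rose with the KDM5A shRNAs (15.8% of all genes lower, 16.4% higher), led by C1GALT1C1, the chaperone of core 1 synthase (-0.80 and -0.42), B4GALT1, a galactosyltransferase (-0.40 and -1.19), and C1GALT1, the core 1 synthase itself (-0.23 and -0.55). With the siRNAs, 8 of 14 fell and 0 rose, against 20.4% lower and 18.3% higher over all genes, led by B4GALT5 (-0.84 and -0.78), B4GALT1 (-0.51 and -0.49) and B3GNT3 (-0.45 and -0.44). In 293T, 5 of 15 fell and 2 rose with the siRNAs, where 15.5% of all genes were lower and 14.6% higher. FUT1, the fucosyltransferase of the H antigen, rose there, from 0.817 ± 0.381 CPM in siControl to 3.93 ± 0.249 and 3.59 ± 0.229 (log2 2.23 ± 0.25 and 2.10 ± 0.25; edgeR, adjusted p = 7.79e-05 and 1.27e-04). With the 293T shRNAs 1 fell, the sialyltransferase ST3GAL1 (-0.34 and -0.36), and 0 rose of 15 (6.11% of all genes lower, 7.33% higher).

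**Figure D3:**
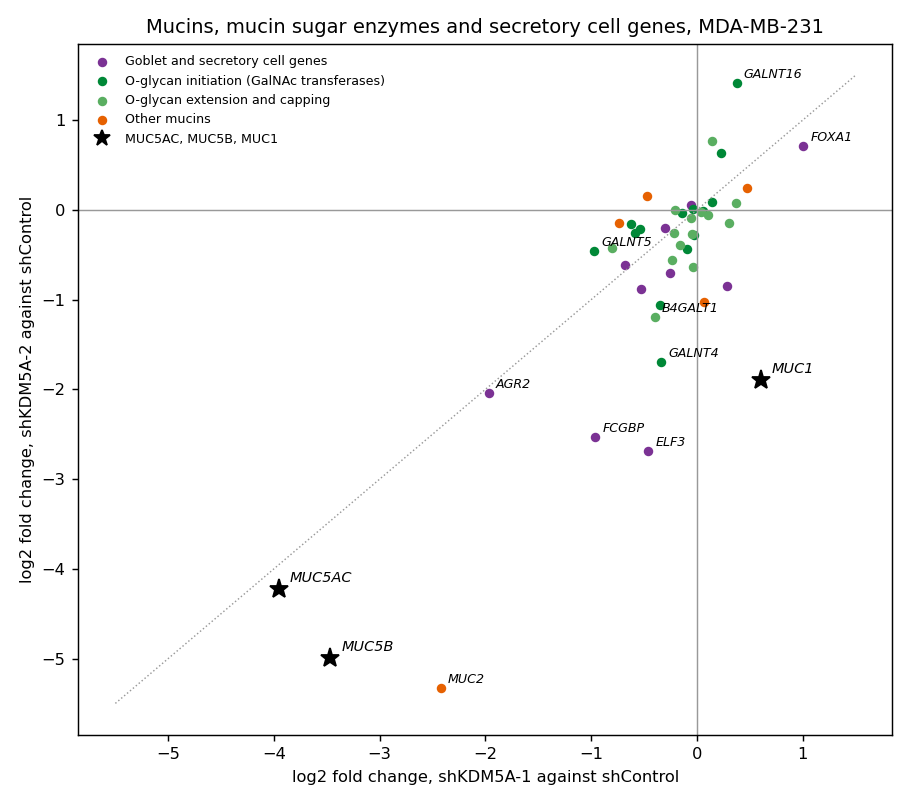
Log2 fold change with shKDM5A-1 (x axis) and shKDM5A-2 (y axis) in MDA-MB-231 for the mucins (stars), goblet and secretory cell genes, O-glycan enzymes and other mucins, with a dotted line of equal change. MUC5AC, MUC5B, MUC2 and AGR2 are low on both axes, and MUC1 lies at 0.61 on one and -1.89 on the other.

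Signals that raise MUC5AC and MUC5B in airway cells include interleukins, ligands of the EGF receptor and Toll-like receptors. With the KDM5A shRNAs in MDA-MB-231, 14 of 32 such genes fell and 2 rose, 43.8% against the 15.8% lower over all genes. IL6 fell from 93.9 ± 1.23 CPM in shControl to 33.2 ± 0.588 and 22.1 ± 1.30 (log2 -1.50 ± 0.043 and -2.09 ± 0.046; edgeR, adjusted p = 8.08e-24 and 3.25e-27). IL1B, a cytokine that induces both gel-forming mucins, fell from 71.4 ± 2.35 to 41.3 ± 2.16 and 21.6 ± 2.68 CPM (-0.79 and -1.73), and TLR2, a receptor of bacterial lipopeptides, changed by -0.99 and -0.94. EGFR (0.58 and 0.57) and FOSL1, an AP-1 subunit (0.15 and 0.30), rose. AREG, HIF1A, NOTCH1, RELA and STAT3 were called with both shRNAs in opposite directions. IL6 and IL1B also differed between the control groups, at 16.0 ± 0.964 and 19.1 ± 0.979 CPM in siControl.

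With the EglN2 siRNAs in MDA-MB-231, 13 of the 32 fell and 8 rose, 40.6% and 25%, against 20.4% and 18.3% over all genes. IL1B fell from 19.1 ± 0.979 to 4.61 ± 0.554 and 4.16 ± 0.363 CPM (-2.05 and -2.20). The EGF receptor ligands EREG (-1.70 and -1.73) and AREG (-0.95 and -1.03) fell with it, and ADAM17, the protease that sheds such ligands (0.65 and 0.69), STAT3 (0.24 and 0.28) and IL4R (0.18 and 0.25) led those that rose. In 293T, ADAM17 (0.80 and 0.80), TLR5 (0.77 and 0.66) and STAT6 (0.38 and 0.45) led 6 of 26 that rose with the siRNAs. NOTCH1 (-0.72 and -0.76), JUN (-0.65 and -0.66) and NFKB1 (-0.38 and -0.44) were among 4 that fell. FOSL1, the other, fell further (-1.17 and -0.81) but was scarce, at an average log2 CPM of -0.52. Over all genes of that set, 14.6% were higher and 15.5% lower. With the 293T shRNAs 5 of 26 fell, led by EPAS1 (-0.91 and -0.56), IL13RA1 (-0.47 and -0.35) and STAT6 (-0.56 and -0.28), and 1 rose, HIF1A (0.12 and 0.19), against 6.11% lower and 7.33% higher over all genes.

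Among 16 tested partners and sheddases of MUC1, 6 fell and 3 rose with the KDM5A shRNAs in MDA-MB-231 (15.8% of all genes lower, 16.4% higher). JUP, the catenin plakoglobin (-1.14 and -1.66), LGALS3, the galectin that binds MUC1 glycans (-0.58 and -0.90), and ICAM1, an endothelial and tumour cell ligand of MUC1 (-0.49 and -1.96), led the lower; EGFR, the chaperone HSP90AA1 (0.39 and 0.25) and ezrin, EZR (0.22 and 0.06), were the higher. With the EglN2 siRNAs in that line 5 rose and 4 fell, 31.2% and 25%, where 18.3% of all genes were higher and 20.4% lower. ICAM1 rose there (1.18 and 1.18), as did ADAM17 and MMP14, both sheddases of MUC1 (MMP14 0.34 and 0.36), while JUP (-0.54 and -0.33) and EZR (-0.13 and -0.11) were among those that fell. In 293T, ADAM17 and EGFR (0.36 and 0.36) rose and 4 of 14 fell with the siRNAs, among them JUP (-0.58 and -0.61) and GRB2 (-0.27 and -0.26), against 14.6% higher and 15.5% lower over all genes. With the shRNAs HSP90AA1 (0.25 and 0.22) and EZR (0.20 and 0.10) rose and 0 of 15 fell (7.33% of all genes higher, 6.11% lower).

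The genes around the mucins were followed outward from their start sites. MUC2 and MUC6 start 83.1 and 121.2 kb before MUC5AC, MUC5B 65.1 kb after it, and TOLLIP, an inhibitor of Toll-like receptor signalling on the opposite side, 151.7 kb after. In the MDA-MB-231 shRNA set, MUC5AC, MUC5B and MUC2 lie beside each other and were all lower, whereas MUC6 was not called and TOLLIP rose (0.41 ± 0.040 and 0.69 ± 0.039; edgeR, adjusted p = 2.13e-10 and 2.53e-16). Of 11 tested neighbours, 1 rose and 3 fell, where 16.4% of all genes were higher and 15.8% lower. Those that fell were MUC2, CTSD, the lysosomal protease cathepsin D (-0.78 and -0.62), and the tetraspanin TSPAN4 (-0.29 and -0.21). MUC2 is among them through a row that only its controls carry. TOLLIP fell with the EglN2 siRNAs in MDA-MB-231 (-0.36 and -0.35) and in 293T (-0.61 and -0.62). In those sets 5 of 9 neighbours fell in each line, against 20.4% of all genes in MDA-MB-231 and 15.5% in 293T, and 2 and 1 rose, against 18.3% and 14.6%. In MDA-MB-231, CTSD (-0.40 and -0.41), TOLLIP and the clathrin adaptor subunit AP2A2 (-0.18 and -0.21) led those below. DUSP8, a phosphatase of MAP kinases (0.81 and 0.62), and BRSK2 (2.27 ± 0.46 and 2.63 ± 0.44) were those above. BRSK2 changed more than DUSP8 but was scarce, at an average log2 CPM of -0.14. In 293T, TOLLIP, the RNA polymerase subunit POLR2L (-0.47 and -0.42) and DUSP8 (-0.52 and -0.42) led those below, with the kinase BRSK2 above (0.12 and 0.15). With the 293T shRNAs 0 of 9 were called the same way with both reagents (7.33% of all genes higher, 6.11% lower).

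Around MUC1, 6 of 14 tested genes fell with both KDM5A shRNAs in MDA-MB-231 and 0 rose (15.8% of all genes lower, 16.4% higher), led by FAM189B (-0.89 and -0.71), the thrombospondin THBS3 (-0.62 and -1.42) and the ion channel gene HCN3 (-0.38 and -0.77). EFNA1, an ephrin that starts 65.5 kb from MUC1, was named after its values were seen. It was also unequal between the shRNAs, at 0.10 ± 0.13 for the first and -1.52 ± 0.16 for the second. The difference of -1.62 ± 0.15 is given with no p because of that choice, and 56.6% of all genes differed between these shRNAs by edgeR. With the EglN2 siRNAs in MDA-MB-231, 2 of 14 rose, among them EFNA1 (0.62 and 0.86), and the metalloprotease ADAM15 fell (-0.11 and -0.11); over all genes 18.3% rose and 20.4% fell. In 293T, HCN3 (0.60 and 0.56) and THBS3 (0.53 and 0.41) were among 4 of 15 that rose with the siRNAs and EFNA4 (-0.74 and -0.70), MTX1 (-0.33 and -0.32) and EFNA3 (-0.31 and -0.29) were the 3 that fell, where 14.6% of all genes were higher and 15.5% lower. With the shRNAs, CLK2 rose (0.14 and 0.25) and THBS3 (-0.26 and -0.66), FAM189B (-0.996 and -0.177) and ADAM15 (-0.29 and -0.11) fell, 1 and 3 of 15, against 7.33% higher and 6.11% lower over all genes.

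**Figure D4:**
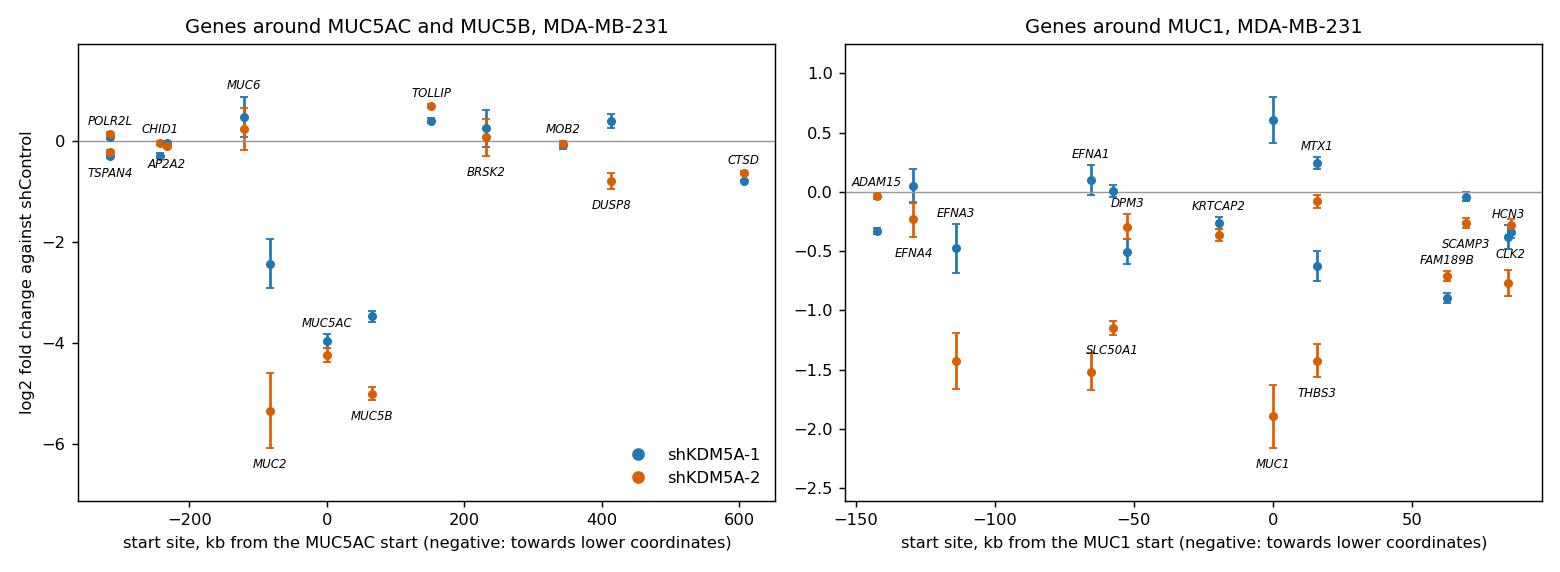
Log2 fold change with each KDM5A shRNA in MDA-MB-231 against the distance of the gene's start site, in kb, from that of MUC5AC (left) or MUC1 (right), for the genes shown; blue, shKDM5A-1; orange, shKDM5A-2; bars, SE. MUC2, MUC5AC and MUC5B lie between -2.42 and -5.33, while MUC6 on one side and TOLLIP on the other lie above 0. MUC6 (0.48 ± 0.40 and 0.24 ± 0.41) was called with neither shRNA. The lowest value is that of MUC2 with shKDM5A-2, where 1 count remained.

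Over all 8 lists, which hold 153 genes, 45 of 111 tested fell and 7 rose with both KDM5A shRNAs in MDA-MB-231 (40.5% and 6.31%, against 15.8% and 16.4% of all genes), and 8 were called in opposite directions. With the EglN2 siRNAs in that line 43 of 112 fell and 19 rose (38.4% and 17%, against 20.4% and 18.3%). In 293T 28 of 105 fell and 17 rose with the siRNAs (26.7% and 16.2%, against 15.5% and 14.6%), and 14 of 106 fell and 6 rose with the shRNAs (13.2% and 5.66%, against 6.11% and 7.33%). The shares that rose lay near or under those of all genes. In 293T 8 rose at an adjusted p under 0.01 and 11 without siEglN2-1 replicate 2, and without the unnumbered control 33 fell and 18 rose. The lists were chosen with earlier results of these data known. Among the genes that fell, MUC2 in the MDA-MB-231 shRNA set and TFF1 in its siRNA set have a row through their controls only.

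The genes whose pattern was most like each mucin were ranked by Pearson's r of log2 CPM minus the mean of the controls of the table. The libraries share their controls and each group's treatment, so r is a description. For MUC5AC, over 18 libraries and 12513 genes, these were CTC-231O11.1 (0.975), the RNA sensor DDX58 (0.973), the glucose transporter SLC2A1 (0.972), the deacetylase HDAC6 (0.971) and the ceramide synthase CERS2 (0.970); MUC5B was at rank 141 (0.935), AGR2 at rank 205 (0.925) and SPDEF at rank 1037 (0.818). For MUC5B, over 27 libraries and 11501 genes, they were the aldose reductase AKR1B1 (0.984), TNIP1 (0.982), the ribonuclease ZC3H12A (0.978), BNIP3L (0.975) and TPCN1 (0.974). For MUC1, over 36 libraries and 11429 genes, they were the lysosomal lipase LIPA (0.897), ACSF2 (0.893), FADS3 (0.889), EFNA1 (0.888) and LMF1 (0.882). Candidates in each ranking were genes with an average log2 CPM of at least 1 in the tables of that mucin. MUC5AC was not listed in every table used for MUC5B, so it was no candidate there. Neither MUC5AC nor MUC5B was listed in every table used for MUC1. Their absence from those rankings is therefore no result.

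MUC5B shares 434 exon bases with its antisense gene MUC5B-AS1, and MUC1 shares 48 with AL713999.1 on the same strand. How the counting treated strand is not given in the sources used here, so reads of those bases cannot be told apart.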

How the data were processed

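The authors deposited 4 gene tables, 1 for each line and target, each with raw and normalized columns for 9 libraries. The raw ones, counts per the file headers, were read as fractional, expected counts, since 49.29% to 50.45% of the deposited values are exactly whole and 57.67% to 68.19% lie within 0.01 of a whole number, and were rounded for the tests. MUC5AC and MUC5B were exactly whole in every library. The normalized columns (9 a table) were not used. The submitters' processing notes name STAR 2.4.2, Salmon 0.1.19 and both GRCh38 and hg19, with no role. The counter, its treatment of strand and repeated reads, and the annotation are not given in the sources used here. Rows in all tables reach a count of at least 10 in some library. Gene names that had become dates (20 to 22 rows a table, 0.194% to 0.209% of counts) were left out.

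The 9 libraries of a table entered 1 fit of edgeR 4.0.16 in R 4.3.3 (TMM factors; filterByExpr at its minimum of 10; a robust, two-sided quasi-likelihood F-test; Benjamini-Hochberg over the genes that passed, 17622 in 293T EglN2 and 17376 in its KDM5A table, 15109 and 15454 in those of MDA-MB-231). All mucins listed in a table passed the filter. A call is an adjusted p under 0.05, and a gene fell or rose with both reagents where both calls have that sign; both reagents share their controls. CPM were computed from the unrounded counts. Each fit was also run on simulated counts with known changes, whose results are not given here. DESeq2 1.42.0, other scaling, no filter, 6 libraries, a replicate block and leaving out each library were tried, and for the ratios of the control groups joint scaling and leaving out the siControl library that stands apart, both added after seeing the data. One 293T siControl column has no replicate number and was taken as the remaining library. Same-numbered libraries had residual correlations of -0.0872 to 0.0773, so the numbers were not read as pairs.

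The mucins and the 8 gene lists were chosen with earlier results of these data known. From each list and table, up to 3 genes called each way with both reagents were named, those with the largest smaller absolute change, if their average log2 CPM was 0 or more, besides the other mucins and the 5 genes most like each mucin; other names are stated as chosen after their values were seen, as were the genes set beside the mucins in the control groups, the genes called in opposite directions and EFNA1 with the KDM5A shRNAs. Positions come from GENCODE 29 on GRCh38 and the promoter from RefSeq on GRCh38.p14, which matched 1 of the 3 mucins. Some listed genes are counted but not reported by name here.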

Additional observations from a re-analysis of the deposited data

Results flagged for a closer look

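MUC5B was lower with both KDM5A shRNAs in MDA-MB-231, but not to the same level: the log2 difference of shKDM5A-2 from shKDM5A-1 was -1.53. MUC1 was above the controls with one shRNA and below them with the other, a log2 difference of -2.50. Both differences passed the edgeR threshold of an adjusted p under 0.05, but the contrasts on which the mucins were chosen are not stated and their responses to both shRNAs were known, so this is no independent test and no p is given. KDM5A was at 16.8 ± 0.659 CPM with shKDM5A-1 and 18.8 ± 0.559 with shKDM5A-2 (SD, n = 3 each); the part of the remaining KDM5A in these differences was not tested. With 56.6% of all genes differing between these shRNAs, the difference is common in that set.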

How the results depend on the processing

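Of 513 values under alternative settings, 508 stayed on their side of the threshold and within 1.5 times the count, or within the spread between libraries for values with no test. The alternatives were DESeq2, its size factors in edgeR, all rows without the filter, a fit of the 6 libraries compared, an adjusted p under 0.01, the replicate block, leaving out each library and, for the ratios of the control groups, joint scaling and 1 siControl library left out. In 293T with the EglN2 siRNAs, the 17 listed genes that rose became 8 at an adjusted p under 0.01. Over the libraries left out in turn they ranged from 11 to 18, lowest without siEglN2-1 replicate 2, and the log2 fold change of MUC1 with siEglN2-2 ranged from 0.11 to 0.46, lowest without siEglN2-2 replicate 2. In MDA-MB-231, MUC1 ranged from 0.47 to 1.25 with siEglN2-1 and from 0.70 to 1.48 with siEglN2-2, highest without siControl replicate 2. The cause was not tested. With shKDM5A-1 and shKDM5A-2 in MDA-MB-231, MUC5AC ranged from -4.25 to -3.81 and from -4.48 to -4.07, MUC5B from -3.52 to -3.39 and from -5.20 to -4.81, and MUC1 from 0.55 to 0.69 and from -2.01 to -1.77. Whether equally numbered libraries share more than a number is not stated (highest residual correlation 0.0773). With the replicate block the MDA-MB-231 values were -3.96 and -4.23 for MUC5AC. The block changed no call of the mucins between the reagents of a pair. For the mucins against controls, only the size of the change was compared under the alternative settings, not the call. The mucins of the siRNA sets and of 293T rest on 4 to 76 counts a library, with SE of 0.20 to 0.47 against controls; what change those counts could show was not measured.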
